A study of Mus musculus with 192 samples.

Results

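The genes described here encode the respiratory chain subunits that are made from nuclear DNA. They were taken from the rows of the deposited count table by symbol: every symbol beginning with Nduf, Uqcr, Cox4, Cox5, Cox6, Cox7, Cox8 or Atp5, together with Sdha, Sdhb, Sdhc, Sdhd, Cyc1 and Cycs. Rows named as pseudogenes (a symbol ending in -ps) were left out. The rule found 95 of 49466 rows, and no measured value was used to choose them. By complex they are 46 genes of complex I, 4 of complex II, 9 of complex III, 18 of complex IV, 17 of complex V and cytochrome c (Cycs). The prefixes also take some genes that are not subunits: 8 complex I assembly factors (symbols starting with Ndufaf), Cox7a2l, a factor for joining complexes into supercomplexes, and Atp5s and Atp5sl, which are not counted among the subunits of ATP synthase. Ndufa4 is counted under complex I by its name, although the protein is now regarded as a subunit of complex IV.

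The study sorted single erythroid progenitors from the livers of C57/Bl6J mouse embryos at day 14.5 and read their full-length mRNA by SmartSeq2. One plate held BFU-E (burst-forming units-erythroid, early progenitors committed to red cells) and a second plate held CFU-E (colony-forming units-erythroid, their later descendants). No genetic or drug treatment is named for either plate. Red cells had been lysed, and beads had removed cells bearing Ter119, CD41, CD16/32, Sca-1, CD11b, Ly-6G, CD45R or CD3e from both. What was left was stained for CD24, CD71 and CD117 and with propidium iodide before sorting. The labels name neither the gates nor the number of embryos.

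The respiratory chain of the inner mitochondrial membrane passes electrons from NADH (complex I) and succinate (complex II) through ubiquinone, complex III and cytochrome c to oxygen at complex IV. Complexes I, III and IV pump protons, and complex V, the ATP synthase, uses the proton gradient to make ATP. Mitochondrial DNA encodes a few core subunits of complexes I, III, IV and V, and the nucleus encodes the others, complex II entirely. Each complex has catalytic subunits related to those of bacteria and, except complex II, a set of small accessory subunits. In red cell precursors the mitochondria also supply succinyl-CoA and house the first and last steps of heme synthesis, and they are removed when red cells mature.

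Each cell type is 1 plate and 1 lane, so it is 1 sample, and plate, lane and cell type cannot be told apart. No test between cell types was therefore possible, and no p-value is given. A cell was kept from 100000 counts and 2000 genes upwards: 92 of the BFU-E plate, holding 114288 to 3864040 counts each, and 89 of the CFU-E plate, holding 131891 to 2992101. Each was thinned to 100000 counts, and levels are given as CPM, the summed thinned counts scaled to a common total. Intervals are 95% and cover the counting error of the summed reads only, not the spread between cells or plates. Reads amplified by PCR and lacking molecular identifiers do not count single molecules, so the error of counting molecules is not covered either. A member is called measured at a mean of at least 5 CPM over both plates, which 88 of the 95 were. Log2 folds are differences of log2(CPM + 1).

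Libraries that stood apart concern the members directly. Of the 92 cells on the BFU-E plate, 39 formed a cluster with granulocyte-monocyte markers: all 15 markers of that list had counts there, and their summed level ran from 130 to 18250 CPM per cell. The other 53 cells were erythroid-like, with 13 of the 15 granulocyte-monocyte markers present at a summed 0 to 1070 CPM per cell (median 30), Elane and Ctsg at 0, and a summed erythroid marker level of 1090 to 6060 CPM. On the CFU-E plate the erythroid markers summed to between 200 and 30010 CPM and the granulocyte-monocyte markers to at most 140 CPM, with Mpo and Elane at 0. In that plate 3 cells carried at least 3 lymphoid markers. All 8 hepatocyte markers had counts in each of the 3 groups, with medians of 140, 120 and 90 CPM per cell. Markers of other lineages moved between the groups. Megakaryocyte markers (6 of 8 with counts, Pf4 and Ppbp at 0) summed to 463 CPM in the erythroid-like cells (0 to 2250 per cell, median 310), to 147 CPM in the granulocyte-monocyte-like cells (0 to 690) and to 25.5 CPM on the CFU-E plate (0 to 130). Lymphoid markers ran from 0 to 2400 CPM (median 250) in the granulocyte-monocyte-like cells, with 6 of 12 at 0, among them Cd3e. They ran from 0 to 130 CPM in the erythroid-like and from 0 to 6890 CPM (median 0) in the CFU-E cells. Endothelial and stromal markers summed to 134, 37.9 and 5.73 CPM in these groups, mast cell and basophil markers to 164, 25.1 and 1.46 CPM, and macrophage markers to at most 15.6 CPM. The part of these markers in the results was not tested. Values are given for the whole BFU-E plate and, where a result turns on it, for its erythroid-like cells. In addition, cell 74 of the BFU-E plate, erythroid-like by its cluster, had the lowest depth of those kept, 114288 counts. It held 22890 CPM in the 53 members with mRNAs of up to 1000 bases, against a median of 2405 and a next highest value of 6670 CPM on its plate. Other genes with short mRNAs were also high in that cell, with 24.03% of its counts against a plate median of 4.85%. That share was not the highest: it reached 33.6% in the other erythroid-like cells and 27.4% in CFU-E cells, where the short members held at most 4630 and 3470 CPM. Results that rest on it are given with and without it.

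The summed level of the 95 genes was 14570 CPM on the BFU-E and 17130 CPM on the CFU-E plate (ratio 1.18, interval 1.17 to 1.18). Single cells of the BFU-E plate lay between 9130 and 24400 CPM, apart from cell 74 at 34940 CPM, with a median of 14450. CFU-E cells lay between 11680 and 21690 CPM with a median of 17290, and 82 of the 89 were above the BFU-E median. On the scale of total counts, most of the difference was the message of 1 gene, Atp5b, the catalytic beta subunit of ATP synthase: without it the sums were 12110 and 12290 CPM. Under TMM scaling (the trimmed mean of M values) the ratio was 1.748 with Atp5b and 1.51 without it, so on that scale most of the difference remained.

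Gene by gene, the members did not move as 1 block. Of the 88 measured members, 1 (Atp5d) had at least a 2-fold higher level on the CFU-E plate, and 24 had a level at least 2-fold lower. Among all 9445 measured genes, 5.98% were 2-fold higher and 32.5% were 2-fold lower. The members' share of lower genes, 27.3%, was thus near that of the transcriptome, and their median log2 fold of -0.61 was close to the -0.57 of all genes. Among other protein-coding genes the share of lower ones fell with level, from 50.8% at up to 20 CPM to 7.22% above 300 CPM. The share of all genes is not matched to the members for level, so these shares do not set the members apart. Without cell 74, 17 of the 24 were still 2-fold lower, which was 19.3% of the members, beside 32.4% of all genes lower and 5.97% higher. The members' median was then -0.50 and that of all genes -0.56. Atp5e, Cox6b1, Cox7c, Ndufa5, Ndufaf2, Ndufb6 and Uqcrh, named here because that cell decides their count, were the 7 that no longer passed.

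Against the 53 erythroid-like cells alone, 1 member was 2-fold higher and 26 were 2-fold lower, beside 6% and 30.1% of all genes. Leaving out cell 74 too gave 19 lower members, beside 29.8% of all genes. All these values use the total count per cell as the common scale. The median of all genes, -0.57 on that scale, was -0.02 under TMM, and members with counts shifted up with it. Under TMM 12 members were 2-fold higher and 7 were 2-fold lower, beside 14.1% and 19% of all genes. Where this choice of scale turns the direction of a named gene or sum, it is said beside the value.

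**Figure D1:**
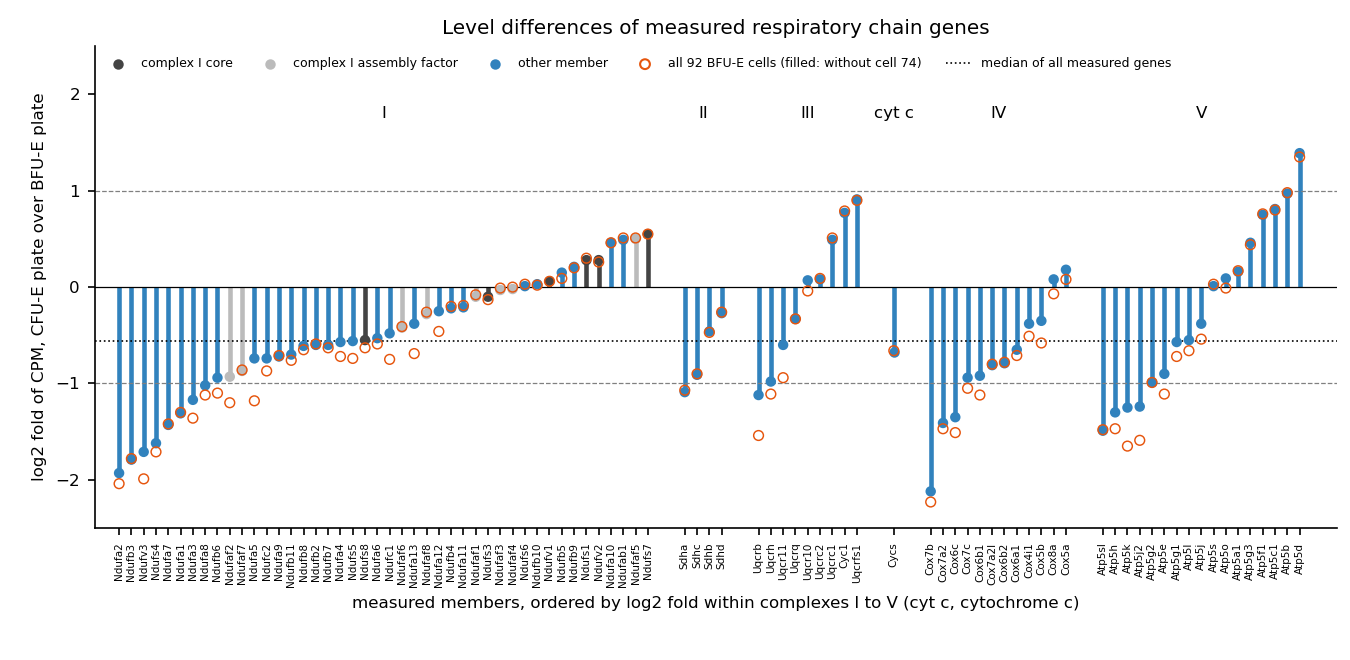
Log2 fold of CPM between the CFU-E and BFU-E plates for measured members (y axis, differences of log2(CPM + 1)), all but 1 of the 88, ordered within complexes I to V on the x axis; filled points leave out cell 74 of the BFU-E plate, open circles include it, dashed lines mark 2-fold and the dotted line marks the median of all measured genes. Atp5d is the 1 gene above the upper dashed line, and complexes I, III, IV and V span both signs while all 4 genes of complex II lie below 0 on this scale of total counts (Sdhb and Sdhd lie above 0 under TMM).

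Complex V had the largest summed level in both plates, and it held the member with the highest fold. Its 17 genes summed to 6592 CPM on the BFU-E and 10010 CPM on the CFU-E plate (ratio 1.52, 1.503 to 1.53), so its share of all member transcripts went from 45.2% to 58.5%. In single cells the sum had a median of 6620 CPM (range 3920 to 10220) on the BFU-E plate and 10060 CPM (6600 to 14590) on the CFU-E plate. Of the CFU-E cells, 88 of 89 lay above the BFU-E median. On the scale of total counts the catalytic F1 head made up nearly all of this: its 5 genes, Atp5a1, Atp5b, Atp5c1, Atp5d and Atp5e, summed to 5299 and 8597 CPM, a ratio of 1.62 (1.60 to 1.64), against 1293 and 1417 CPM for the 12 other complex V genes (1.096, 1.07 to 1.12). Under TMM both parts were higher in CFU-E cells, with ratios of 2.41 and 1.63. Gene by gene the complex was mixed: 7 of its 17 genes (41.2%) had log2 folds above 0, beside 26.4% of all genes. Their median was -0.54, with 1 gene 2-fold higher and 5 (29.4%) 2-fold lower, beside 5.98% and 32.5% of all genes. Without cell 74, 8 were above 0 and 4 were 2-fold lower (23.5%, beside 32.4%). Under TMM the median was 0.02, with 5 higher and 2 lower, beside 14.1% and 19%.

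Atp5d, the delta subunit of the central stalk, was at 202.5 CPM on the BFU-E and 518.5 CPM on the CFU-E plate, 2.56-fold higher (2.43 to 2.70). Its single-cell values ran from 30 over a median of 170 to 700 CPM on the BFU-E plate, and from 200 over 500 to 990 CPM on the CFU-E plate. The lowest CFU-E cell thus lay above the BFU-E median, although the ranges overlapped. Atp5b had 4844 CPM in CFU-E and 2459 CPM in BFU-E cells, 1.97-fold (1.94 to 2.002). Single cells held 970 to 3750 CPM on the BFU-E plate (median 2485) and 1760 to 7560 CPM on the CFU-E plate (median 5000). Atp5c1, the gamma subunit that turns inside the F1 head, went from 449 to 782 CPM (ratio 1.74, 1.68 to 1.81). Atp5a1, the alpha subunit that alternates with beta in the head, differed little, with 2161 and 2439 CPM (1.13, 1.11 to 1.15). Atp5b thus gained on its partner Atp5a1. On the scale of CPM per kilobase of all exons, Atp5b stood at 580.5 and Atp5a1 at 689 in BFU-E cells, and at 1143 and 778 in CFU-E cells, the highest levels of all members. Their order in BFU-E cells depends on the length used: with the main mRNAs (1916 and 2471 bases) Atp5b was above Atp5a1 in both plates.

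The lowest folds of the complex, with all cells, were those of Atp5k and Atp5j2. Atp5k, the e subunit of the membrane part, had 9.89 CPM on the BFU-E and 2.47 CPM on the CFU-E plate, 4.001-fold lower (2.49 to 6.70), or 2.93-fold without cell 74. Atp5j2, the f subunit, had 50.5 and 16.2 CPM, 3.12-fold lower (2.59 to 3.79), or 2.44-fold without that cell. The 3 genes for the same mature c subunit, which forms the rotor ring, differed in direction. Atp5g1 was at 127 and 76.7 CPM and Atp5g2 at 81.3 and 40.5 CPM, while Atp5g3 was at 104 and 142 CPM. Per kilobase of all exons, Atp5g3 was the highest of the 3 in CFU-E cells with 65.02 CPM, against 24.2 for Atp5g2 and 15.6 for Atp5g1. For Atp5g2, 87.4% of the 50-base words of its main transcript also occur in other genes, so its count depends on how the authors treated reads with several matches, which is not given in the sources used here.

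The 9 genes of complex III summed to 1691 CPM on the BFU-E and 2242 CPM on the CFU-E plate (ratio 1.33, 1.298 to 1.35). Uqcrfs1, the Rieske iron-sulfur protein that takes electrons from ubiquinol, was at 216 and 405 CPM (1.88, 1.78 to 1.98). Its single-cell median went from 210 to 390 CPM, with ranges of 0 to 540 and 130 to 1030 CPM. Cyc1, cytochrome c1, which passes the electrons on to cytochrome c, went from 212 to 367 CPM (1.73, 1.63 to 1.83). Uqcrc1, a large core protein facing the matrix, was at 679 and 965 CPM (1.42, 1.38 to 1.47), and its partner Uqcrc2 was at 362 and 386 CPM (1.07, 1.02 to 1.12). These catalytic and core genes had higher levels in CFU-E cells on both scales. Uqcrb and Uqcrh, small subunits at the membrane and the hinge, had the lowest folds of the complex: Uqcrb had 53.2 and 17.6 CPM (3.01-fold lower, 2.51 to 3.63) and Uqcrh 67.7 and 30.9 CPM (2.19-fold lower, 1.90 to 2.54). Without cell 74 the fold of Uqcrb was 2.24. That cell alone held 1300 CPM of Uqcrb, against at most 160 CPM in the other BFU-E cells. Cycs, the soluble carrier between complexes III and IV, had 107 and 67.6 CPM (1.59-fold lower, 1.43 to 1.76), a difference that is near 0 under TMM (log2 fold -0.09) and 0.02 with median-of-ratios factors when the granulocyte-monocyte-like cells are left out.

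Complex IV was lower in CFU-E cells. The summed level of its 18 genes was 1274 CPM on the BFU-E and 821 CPM on the CFU-E plate, 1.55-fold lower (1.51 to 1.60), or 1.44-fold (1.40 to 1.48) without cell 74. Cell medians were 1140 and 790 CPM, and 5 of 89 CFU-E cells lay above the BFU-E median. Under TMM the ratio of the sums was 0.958, so on that scale the complex as a whole was about level. Cox7b, a small subunit, had the lowest fold of all members. It was at 62.1 CPM on the BFU-E and 12.5 CPM on the CFU-E plate, 4.98-fold lower (4.05 to 6.16), or 4.63-fold without cell 74, and it stayed over 2-fold lower under TMM (log2 fold -1.68). A count of Cox7b was found in 97.8% of BFU-E and 64% of CFU-E cells after thinning. Its single-cell median was 50 CPM on the BFU-E and 10 CPM on the CFU-E plate, with ranges of 0 to 460 and 0 to 60 CPM. Cox6c followed, with 89.02 and 30.6 CPM (2.91-fold lower, 2.54 to 3.35). Cox4i1, Cox5a and Cox8a differed less. Cox4i1, the regulatory subunit that binds adenine nucleotides, had 265 and 187 CPM (1.42-fold lower, 1.34 to 1.52), which turns to slightly higher in CFU-E cells under TMM (log2 fold 0.06). Cox5a had 84.6 and 89.7 CPM (ratio 1.06, 0.959 to 1.17). Cox8a, the complex IV gene with the most CPM per kilobase, had 197 and 188 CPM (0.952, 0.890 to 1.02), with a sign that changes without cell 74 or under TMM. For Cox5a and Cox8a the counting interval included 1.

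Complex IV and its neighbours have tissue forms, and the forms found in most tissues were measured in both plates. Cox6a1 was at 102 and 61.7 CPM, while the heart and muscle form Cox6a2 had 11 counts in BFU-E and 2 in CFU-E cells. Those 11 counts lay in the granulocyte-monocyte-like cells, as did all 19 counts of Cox4i2, the form linked to low oxygen and lung. Cox4i2 was found in 9 of the 39 granulocyte-monocyte-like cells (23.1%) and had no count in the 53 erythroid-like or 89 CFU-E cells, which allows at most 0.566 and 0.337 CPM. Cox7a2 was at 46.9 and 16.3 CPM, and the muscle form Cox7a1 had no count in either plate, which allows at most 0.326 CPM on the BFU-E and 0.337 CPM on the CFU-E plate. Cox7b2 also had none. Cox8b had 1 count in BFU-E cells and Cox8c 4 counts in CFU-E cells. Ndufa4l2, the low-oxygen relative of Ndufa4 (78.5 and 47.2 CPM), had 4 counts in BFU-E and 11 in CFU-E cells. These 7 genes (Cox4i2, Cox6a2, Cox7a1, Cox7b2, Cox8b, Cox8c and Ndufa4l2) were the members below the measured level. Cox6b2, described as the testis form, was low but measured, with 8.80 and 4.72 CPM against 84.4 and 38.3 CPM for Cox6b1. Within the BFU-E plate Cox6b2 was at 2.31 CPM in granulocyte-monocyte-like cells and 13.9 CPM in erythroid-like cells without cell 74, a ratio of 6 (2.99 to 13.7).

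Complex II had the largest decrease of a sum, and none of its mRNAs is short. The 4 genes summed to 1700 CPM on the BFU-E and 1001 CPM on the CFU-E plate, 1.70-fold lower (1.65 to 1.74). The cell medians were 1640 and 960 CPM, and 3 of 89 CFU-E cells lay above the BFU-E median. Sdha, the flavoprotein that oxidises succinate, made up most of it. Sdha was at 1057 CPM on the BFU-E and 501.5 CPM on the CFU-E plate, 2.11-fold lower (2.04 to 2.19), with single-cell values of 110 to 2210 CPM (median 1020) and 150 to 1170 CPM (median 440). Cell 74 was the lowest BFU-E cell here, and without it the fold was 2.13. Sdhc, a membrane anchor, had 46.7 and 24.5 CPM (1.91-fold lower, 1.62 to 2.26). Sdhb, the iron-sulfur subunit, had 205 and 148 CPM (1.39-fold lower, 1.29 to 1.49), and Sdhd, the other anchor, had 391 and 328 CPM (1.19-fold lower, 1.14 to 1.25). The directions of Sdhb and Sdhd turn under TMM, with log2 folds of 0.10 and 0.32, while Sdha and Sdhc stayed lower. The ratio of the complex II sums was 0.876 under TMM. Within the BFU-E plate Sdhd was higher in the erythroid-like cells, 466 CPM without cell 74 against 299 CPM in the granulocyte-monocyte-like cells, and the CFU-E level lay between them.

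**Figure D2:**
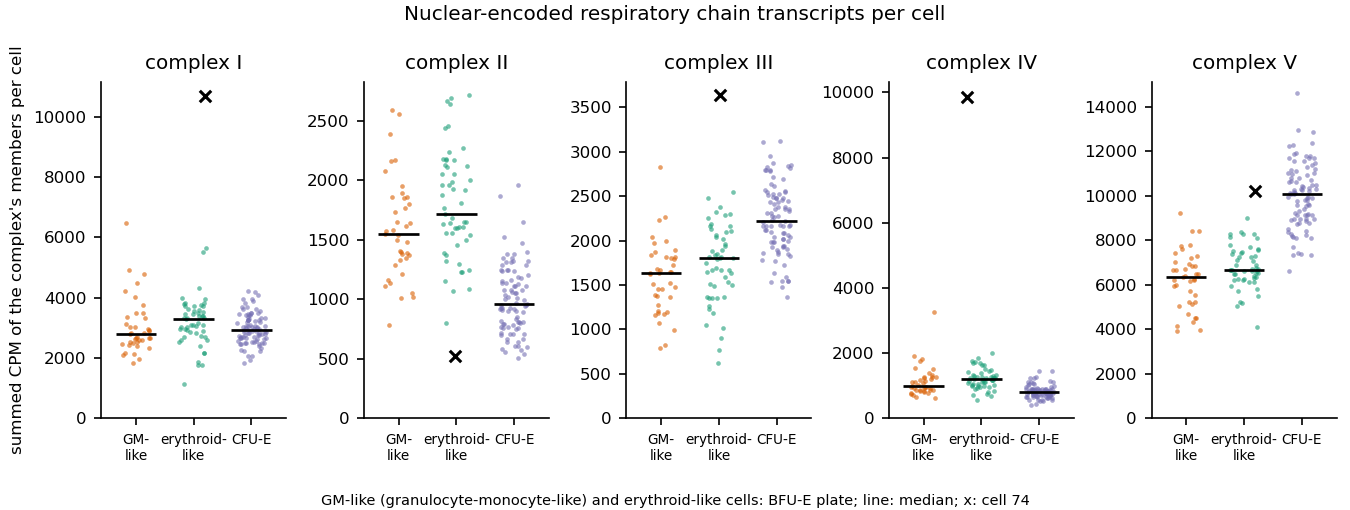
Summed CPM of the members of each complex in single cells (y axis, from 0, 1 panel per complex) for granulocyte-monocyte-like cells (n = 39) and erythroid-like cells (n = 53) of the BFU-E plate and for CFU-E cells (n = 89); points are cells, lines are medians and the cross is cell 74. Complex V cells of the CFU-E plate centre on 10060 CPM, above those of the BFU-E plate, complex II cells centre on 960 CPM, below them, and complex I overlaps in all 3.

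The 46 genes of complex I summed to 3207 CPM on the BFU-E and 2985 CPM on the CFU-E plate (ratio 0.931, 0.915 to 0.946). Under TMM that ratio turned to 1.38. Of the 7 core subunits that carry the flavin and the iron-sulfur clusters, 5 had log2 folds above 0 and none was 2-fold lower. Among all genes 26.4% lay above 0 and 32.5% were 2-fold lower. Against the erythroid-like cells alone 4 core subunits lay above 0, beside 27.2% of all genes. The shares of all genes are not matched to the core subunits for level. The other 30 measured subunits had a median of -0.72 with 10 of them (33.3%) 2-fold lower, close to the 32.5% of all genes. Without cell 74 the median was -0.60 with 8 lower (26.7%), beside 32.4% of all genes. The 8 assembly factors had a median of -0.17, which turns to 0.36 under TMM.

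Ndufv1, the flavin subunit where NADH is oxidised, was at 245 CPM on the BFU-E and 255 CPM on the CFU-E plate (1.04, 0.981 to 1.10), an interval that includes 1, and its log2 fold turns to -0.02 without the granulocyte-monocyte-like cells. Ndufs7, which hands electrons to ubiquinone, went from 102 to 150 CPM (1.47, 1.35 to 1.60). Its cell medians were 90 and 140 CPM, and the cells of both plates overlapped over most of their range. The accessory subunit Ndufa10 was also higher in CFU-E cells, with 247 and 340 CPM (1.38, 1.303 to 1.45). Ndufaf5, an assembly factor that hydroxylates Ndufs7, had 15.3 and 22.2 CPM (1.45, 1.16 to 1.82).

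At the other end stood accessory subunits. Ndufa2 was at 42.8 CPM on the BFU-E and 9.66 CPM on the CFU-E plate, 4.43-fold lower (3.50 to 5.66), or 4.09-fold without cell 74. A count was found in 88% of BFU-E and 61.8% of CFU-E cells. Ndufv3, an accessory subunit of the NADH-oxidising module, had 33.7 and 7.75 CPM, 4.35-fold lower (3.34 to 5.73), or 3.56-fold without cell 74. Ndufv3 and the core subunit Ndufv1 belong to the same module, and their folds lay far apart. Ndufs4, named here after its values were seen because its mRNA is not short (1698 bases), had 37.5 and 10.8 CPM. The mRNA of Ndufv3 is not short either. Ndufa2 and Ndufv3 stayed over 2-fold lower under TMM, with log2 folds of -1.50 and -1.45.

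**Figure D3:**
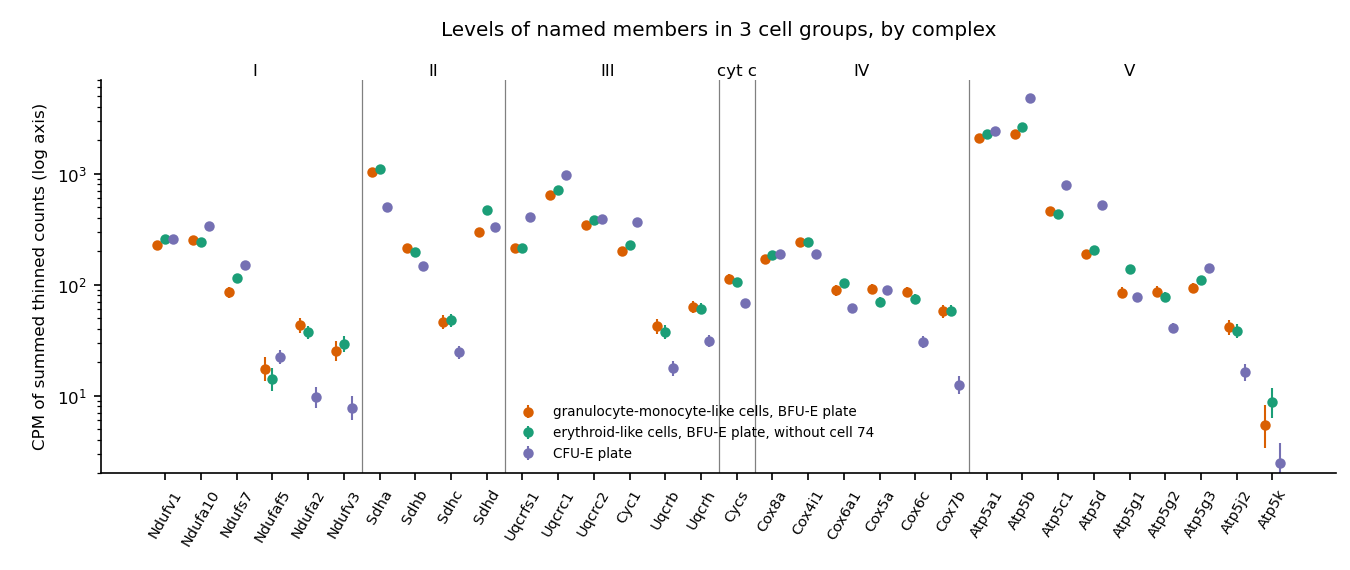
CPM of summed thinned counts (log y axis) for members named by rule, in granulocyte-monocyte-like cells and erythroid-like cells (without cell 74) of the BFU-E plate and in CFU-E cells; bars are 95% Poisson intervals (counting error only), and complexes I to V are separated by vertical lines. Both groups of the BFU-E plate lie close together for most genes, while CFU-E cells stand apart in Atp5b (4844 CPM), Atp5d (518.5 CPM), Sdha (501.5 CPM) and Cox7b (12.5 CPM).

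The group with the shortest mRNAs had the lowest median fold, among members and among other genes, and the group of the most abundant members had the highest. Among the 29 measured members with main mRNAs of at most 700 bases, the median log2 fold was -0.94 and 14 were 2-fold lower. The 127 other genes of that length had a median of -1.04, and 53.5% of them were 2-fold lower. Without cell 74 the members' median was -0.79 with 8 of 29 lower, and 49.6% of the other genes were lower. Among members of more than 1500 and up to 2500 bases the median was 0.13 (16 genes), against -0.43 in 2041 other genes. By level, the 12 members above 300 CPM had a median of 0.40 and other genes 0.07. The 23 members of more than 20 and up to 50 CPM had a median of -1.05 against -0.65 in other genes, or -0.91 against -0.65 without cell 74. Across the 88 members the log2 fold had a Spearman correlation of 0.40 with mRNA length and 0.54 with level, or 0.36 and 0.52 without cell 74. Across the 8900 other protein-coding genes the correlations were -0.11 and 0.32, with or without that cell. Points in these correlations share libraries. Length and level overlapped in part: none of the measured members of up to 1000 bases lay above 300 CPM. The medians by both length and level that follow use all cells. Between 20 and 50 CPM the 16 members of up to 1000 bases had a median of -1.08 and the 7 longer ones -0.90. Between 100 and 300 CPM the 5 short members had a median of -0.01 and the 9 longer ones 0.06, while other genes of that level had -0.68 (53 short) and -0.24 (1423 longer). Sdha, Ndufs4, Ndufv3, Atp5sl and Cox7b went against the length trend: their mRNAs have more than 1000 bases, Cox7b only just, and they were 2-fold lower with or without cell 74. Atp5sl was 2-fold lower only against the whole BFU-E plate, not against its erythroid-like cells alone. Cox7b had the lowest fold of all members. Cox8a, with an mRNA of 550 bases and almost the same level in both plates, went against the trend the other way.

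In single cells, the summed level of the 53 members with mRNAs of up to 1000 bases followed the share of counts in other short mRNAs. The Spearman correlation was 0.52 in granulocyte-monocyte-like cells (n = 39), 0.66 in erythroid-like cells without cell 74 (n = 52) and 0.51 in CFU-E cells (n = 89). With depth, the short members had correlations of 0.23, 0.11 and -0.46 in these groups, and the longer members 0.43, 0.14 and 0.28. The share of other short mRNAs had medians of 4.42%, 5.18% and 4.20% in these groups, and the short members had medians of 2150, 2575 and 1840 CPM. The 42 longer members had medians of 11140, 12320 and 15260 CPM. On the scale of total counts, the median of the short members was thus lower and that of the longer members higher in CFU-E cells than in either group of the BFU-E plate. For the short members this direction turns under TMM, whose factors on the total counts were 1.22 for the BFU-E and 0.820 for the CFU-E plate. What part library chemistry has in this was not tested.

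**Figure D4:**
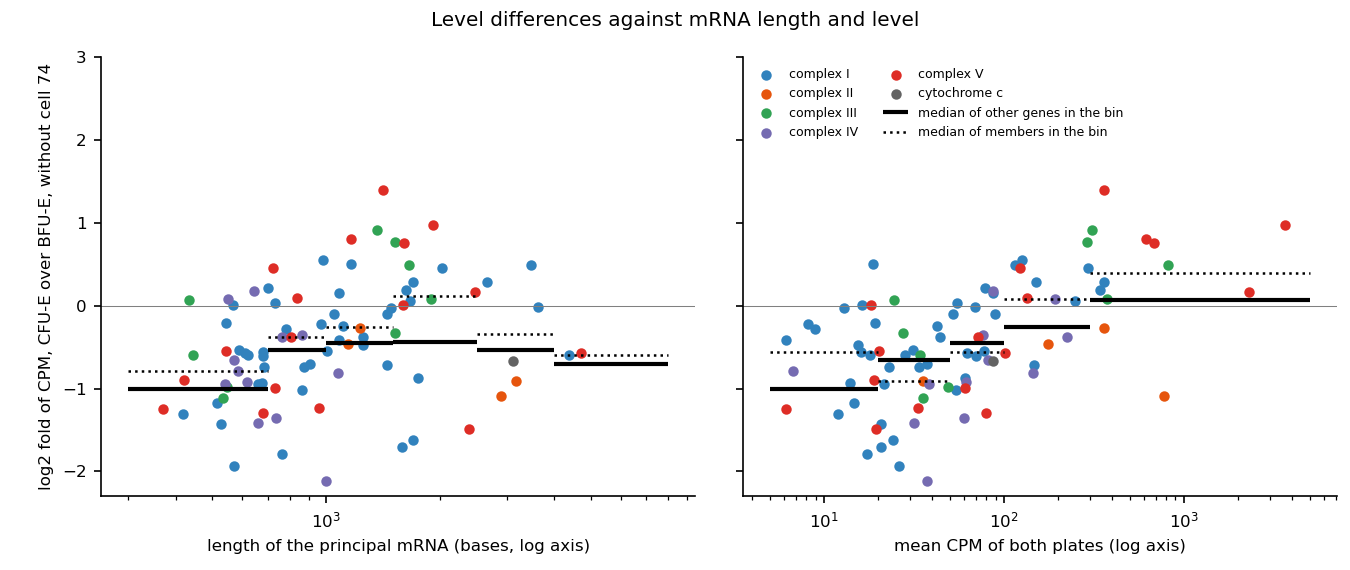
Log2 fold of CPM between the CFU-E and BFU-E plates without cell 74 (y axis) against the length of the main mRNA (left, bases, log axis) and the mean level (right, CPM, log axis) for the 88 measured members, coloured by complex; thick lines are medians of other genes in each bin and dotted lines are medians of members. In the shortest bin members (median -0.79) and other genes both lie far below 0, and above 300 CPM members lie higher than other genes (0.39 and 0.07).

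Within the BFU-E plate few members separated the cell types. Of the 88 measured members, 4 were at least 2-fold higher in erythroid-like than in granulocyte-monocyte-like cells (Atp5k, Cox6b2, Ndufa5 and Uqcr11, named after their values were seen) and 1 was 2-fold lower (Atp5sl, likewise), beside 8.76% and 11.2% of all genes. Without cell 74 only Cox6b2 remained on the higher side and Atp5sl on the lower, beside 8.6% and 11.1% of all genes. The sums of all members were 13700 CPM in granulocyte-monocyte-like cells and 14830 CPM in erythroid-like cells without that cell, a ratio of 1.083 (1.07 to 1.095). By complex the ratios lay between 1.05 for complex I and 1.13 for complex II. With cell 74 the ratio of all members was 1.11, and by complex the ratios lay between 1.095 for complex I and 1.21 for complex IV. The differences seen for Atp5b, Atp5d, Uqcrfs1, Sdha and Cox7b thus lay between the plates and were small between the cell types that shared a plate: Uqcrfs1 had 215 and 214 CPM and Cox7b 57.2 and 58.1 CPM in the granulocyte-monocyte-like and erythroid-like cells.

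Cell-to-cell spread was lower for members than over all genes of at least 50 CPM. Among genes of at least 50 CPM, the median coefficient of variation across BFU-E cells without cell 74 was 0.607 for 48 members and 0.922 for all 4173 such genes, whose median levels were 107 and 107 CPM. With that cell it was 0.745 for 52 members and 0.944 for 4171 genes. Across CFU-E cells it was 0.496 for 39 members and 0.748 for 3212 genes, with median levels of 148 and 108.5 CPM. The steadiest members were Atp5a1 (0.218 in BFU-E without cell 74 and 0.224 in CFU-E cells) and Atp5b (0.261 and 0.227), followed by Sdha in BFU-E (0.337) and Uqcrc1 in CFU-E cells (0.292). The most variable in CFU-E cells were Ndufaf4 (1.04), Ndufb8 (0.978) and Ndufaf1 (0.846). With all BFU-E cells the most variable were Uqcrb (2.53), Atp5j2 (2.21) and Ndufa13 (1.995), and without cell 74 they were at 0.745, 0.859 and 0.809. At 100000 counts a level of 50 CPM is 5 counts per cell, so counting error is part of this spread.

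Across cells the complexes varied together to different degrees. The sums of complexes I and IV had a Spearman correlation of 0.67 in granulocyte-monocyte-like cells, 0.55 in erythroid-like cells without cell 74 and 0.37 in CFU-E cells. Complexes II and V had 0.03, 0.24 and 0.35. With the counts per cell before thinning, complex I had 0.13, 0.25 and -0.28 in these groups, and complex IV 0.10, -0.07 and -0.36. Each of these is a description of cells from 1 plate that share depth and library preparation, and the sums of complexes I and IV both hold many short mRNAs.

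The subunits encoded in mitochondrial DNA were measured in the same libraries, which start from poly(A) RNA. Their sum was 23600 CPM on the BFU-E and 25200 CPM on the CFU-E plate (1.07, 1.06 to 1.07), against 14570 and 17130 CPM for the nuclear members. Of the 13 genes 9 were measured, with 1 at least 2-fold higher and 3 at least 2-fold lower (2 and 1 under TMM), beside 5.98% and 32.5% of all genes. mt-Co1, the catalytic subunit of complex IV, was at 7932 and 11930 CPM, whereas the sum of the nuclear complex IV genes was lower. mt-Nd5 was at 2868 and 1216 CPM and mt-Nd6 at 210 and 60 CPM, and mt-Nd3 at 32.2 and 12.7 CPM. mt-Nd1 (6162 and 5834 CPM) and mt-Cytb (4295 and 3994 CPM) differed less, and their directions turn under TMM. mt-Atp6, the gene that was 2-fold higher, had 6.52 and 16.7 CPM. mt-Co2 and mt-Co3 had at most 5.11 CPM and were not measured. Nuclear copies of mitochondrial DNA, overlapping genes and the unknown use of strand make these counts uncertain, so levels of single mitochondrial genes are given as counted.

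Genes that feed, build or serve the chain were taken from lists, whose counts stand beside 5.98% of all genes 2-fold higher and 32.5% 2-fold lower, or 14.1% and 19% under TMM. The TCA cycle enzymes, which supply its electrons, had a median log2 fold of 0.36 over 14 measured genes, with 1 at least 2-fold higher and 1 at least 2-fold lower, or 6 and 1 under TMM. Dlst, the succinyl transferase of the oxoglutarate dehydrogenase complex, was at 292 and 746 CPM (2.56-fold higher, 2.44 to 2.67), and Cs, citrate synthase, at 642 and 1212 CPM (1.89, 1.83 to 1.95). Idh3g, a non-catalytic subunit of isocitrate dehydrogenase, was at 344 and 111 CPM (3.10-fold lower, 2.89 to 3.34), while Idh3b of the same enzyme was at 238 and 443 CPM. Idh2 had 486 CPM on the BFU-E plate, made up of 757 CPM in granulocyte-monocyte-like and 286 CPM in erythroid-like cells, against 280 CPM in CFU-E cells. Assembly factors of complexes II to V had a median of -0.77 over 25 measured genes, with 8 at least 2-fold lower, a share near that of all genes, or 2 under TMM. Among the 8 were Uqcc3 (20.98 and 5.96 CPM) and Cox16 (14.2 and 4.27 CPM). Sdhaf2, which helps to insert the flavin into Sdha, had the highest fold of that list with 78.9 and 107 CPM, followed by Cox18, an inserter of complex IV subunits into the membrane, with 27.8 and 34.5 CPM.

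The 7 complex I assembly factors outside the prefix included none past 2-fold, with a median of -0.00. The median was 0.55 under TMM, where Timmdc1 was 2-fold higher (log2 fold 1.24), and Tmem126b was 2-fold lower against the erythroid-like cells alone (-1.04). Timmdc1 (19.9 and 32.8 CPM) and Ecsit (73.6 and 82.6 CPM) had the highest folds, and Tmem126b (39.02 and 21.1 CPM) and Foxred1 (107 and 88.7 CPM) the lowest, that of Foxred1 turning to 0.30 on the log2 scale under TMM. Of 9 measured carriers and supercomplex factors, 2 were 2-fold lower (under TMM 2 higher and 1 lower): Slc25a4, an ADP/ATP carrier, with 283 and 124 CPM, and Higd2a, with 35.4 and 11.4 CPM. Slc25a5, the other main ADP/ATP carrier, was at 1198 and 2299 CPM (1.92, 1.88 to 1.97), and the phosphate carrier Slc25a3 at 1201 and 1899 CPM. The main ADP/ATP carriers, which exchange the substrate and product of ATP synthase across the inner membrane, thus differed in direction. Regulators of mitochondrial biogenesis included none past 2-fold among 11 measured genes, with a median of -0.43 that turns to 0.14 under TMM. Nrf1 was at 159 and 216 CPM (log2 fold 1.01 under TMM, the 1 gene of the list then past 2-fold), Tfam, which packages and transcribes mitochondrial DNA, at 117 and 148 CPM and Gabpa at 88.4 and 94.5 CPM. Yy1 (25.9 and 14.3 CPM) and Twnk, the mitochondrial helicase (74.2 and 51.4 CPM), had the lowest folds, that of Twnk turning to 0.04 on the log2 scale under TMM. Ppargc1a had 1.196 CPM in BFU-E and no count in CFU-E cells, which allows at most 0.337 CPM. TMM moves the log2 folds of these lists up as well: the median was 0.93 for the TCA cycle enzymes and -0.22 for the assembly factors of complexes II to V.

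NRF1 and GABP are transcription factors known to act at promoters of many respiratory chain genes, so the 250 bases before each gene's start were searched for their motifs on both strands. RefSeq promoters on GRCm38.p6 were matched for 78 of the 95 members. The NRF1 motif, GCGCA and GCGC with any base between them, was found before 14 of 78 members, 17.9%, against 4.23% of 27025 genes. The GABP motif CCGGAAG was found before 17.9% of members and 7.83% of genes, and the cyclic AMP response element TGACGTCA before 6.41% and 1.77%. The 14 measured members with an NRF1 match had a median log2 fold of -0.72, and the 61 without had -0.63. For GABP these medians were -0.69 and -0.63, and for the cyclic AMP response element -0.19 in 5 members with a match and -0.68 in 70 without. With all cells, a GABP match lay before 5 of the 21 searched members that were 2-fold lower and before 0 of the 18 searched with a log2 fold above 0. The 5 were Atp5e, Atp5h, Cox6b1, Ndufb6 and Uqcrh. Only Atp5h among them was still 2-fold lower without cell 74 of the BFU-E plate, so the contrast rests largely on that cell. None of the 5 complex III genes searched had an NRF1 match, while 4 of the 16 complex V genes and 2 of the 3 complex II genes had at least 1. A match is a description of letters, not of a bound site.

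The matches of the complex II genes and of members that differed in opposite directions are printed here with 10 bases on either side, in the direction of the gene, with the motif in capitals. Sdha had 3 matches, at chr13:74350319-74350348, chr13:74350276-74350305 and chr13:74350231-74350260 on the minus strand, and Sdhd had 1 at chr9:50603909-50603938 on the minus strand. Atp5c1, higher in CFU-E cells, had 1 at chr2:10080430-10080459 on the minus strand. Cox6a1, lower in CFU-E cells, had 2, at chr5:115349101-115349130 and chr5:115349056-115349085 on the minus strand, and Atp5k, also lower, had 1 at chr5:108434430-108434459 on the minus strand.
Sdha from 74350319: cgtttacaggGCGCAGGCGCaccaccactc
Sdha from 74350276: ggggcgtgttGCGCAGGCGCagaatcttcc
Sdha from 74350231: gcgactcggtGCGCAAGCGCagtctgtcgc
Sdhd: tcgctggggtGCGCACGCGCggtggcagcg
Atp5c1: ctgagctcccGCGCACGCGCactgagtccc
Cox6a1 from 115349101: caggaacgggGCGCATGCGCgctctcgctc
Cox6a1 from 115349056: cggataaagtGCGCAGGCGCtggagttcct
Atp5k: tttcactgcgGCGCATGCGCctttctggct

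The member with the highest level per kilobase in CFU-E cells, Atp5b, and the member with the lowest fold, Cox7b, had none of the NRF1, GABP or cyclic AMP motifs in this window. Their upstream sequences are shown for comparison, up to the first base of the gene in GENCODE M21. That of Atp5b is chr10:128083057-128083272 on the plus strand (216 bases), in which the letters CCAAT or their reverse complement occur 5 times. That of Cox7b is chrX:106015450-106015699 on the plus strand (250 bases), with 1 such occurrence. CCAAT was found before 46.2% of members and 37.5% of all genes.
Atp5b: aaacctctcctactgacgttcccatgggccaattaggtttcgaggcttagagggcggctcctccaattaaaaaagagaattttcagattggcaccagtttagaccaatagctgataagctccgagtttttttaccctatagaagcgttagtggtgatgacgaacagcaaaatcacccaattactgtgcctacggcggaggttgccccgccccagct
Cox7b: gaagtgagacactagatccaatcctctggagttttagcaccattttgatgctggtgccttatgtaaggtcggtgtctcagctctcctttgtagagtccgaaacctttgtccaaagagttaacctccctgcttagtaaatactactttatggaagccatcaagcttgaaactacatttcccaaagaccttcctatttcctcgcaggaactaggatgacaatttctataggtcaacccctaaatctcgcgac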

How the data were processed

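SmartSeq2 libraries of single mouse fetal liver cells were analysed. The authors deposited raw read counts for each gene and cell, made with STAR 2.4, featureCounts and GRCm38, per the submitters' processing notes. Annotation release, use of strand and treatment of reads with several matches were not given in the sources used here. Of the cell columns, 191 matched a labelled cell by name, while 1 column matched none and stayed unused.

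Wells under 100000 counts or 2000 genes were left out (4 BFU-E, 6 CFU-E), cells were thinned to 100000 counts (seed 1), summed per group and expressed as CPM with exact Poisson intervals. Ratios carry exact conditional binomial intervals, and the floor was 3 counts per group. The BFU-E plate was clustered (Ward, 10 principal components of 1000 variable genes without members), which gave 39 granulocyte-monocyte-like cells. No doublet caller was run on sorted single cells. Gene position and mRNA length came from GENCODE M21. TMM factors came from edgeR 4.0.16 and median-of-ratios factors from DESeq2 1.42.0, and no count test was run.

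Genes were named by rule: in each complex the 3 with the most CPM per kilobase of exon and the 2 highest and 2 lowest by log2 fold, all Sdh genes, Cycs, Cyc1, the isoform families, and the 3 most and 3 least variable members per plate. In each list the 2 highest and 2 lowest were named. Other genes named with values (Ndufs4, Idh3b, mt-Nd1, mt-Nd5, mt-Cytb, mt-Co2, mt-Co3, Gabpa and Ppargc1a) were chosen after their values were seen. The values of 1 named member are not reported here. Members, lists and rules were chosen with earlier results of these data known. Coordinates and sequences are RefSeq's on GRCm38.p6.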

Additional observations from a re-analysis of the deposited data

How the results depend on the processing

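The scale moved the results most. Members with at least a 2-fold higher level in the CFU-E plate numbered 1 with total counts, 12 under TMM, 12 with median-of-ratios factors, 5 without the 50 highest genes in the total, and 2 with raw sums, without mitochondrially encoded genes in the total, or in even-numbered cells. Those at least 2-fold lower numbered 24, then 7 under TMM and 6 with median-of-ratios factors. The shares of all genes, with the measured genes chosen anew in each setting, moved too. They went from 5.98% higher and 32.5% lower to 14.6% and 17.9% under TMM and 15.8% and 16.9% with median-of-ratios factors. Without the 50 highest genes they were 8.56% and 27.1%, and with raw sums 5.75% and 32.5%. Without mitochondrially encoded genes they were 6.25% and 32.1%, and in even-numbered cells 7.26% and 35.1%. The members' median log2 fold went from -0.61 to -0.06 and -0.00, and the log2 ratio of the summed members from 0.23 to 0.81 and 0.86. Without the granulocyte-monocyte-like cells, TMM gave 9 higher and 10 lower, beside 14.8% and 14.4% of all genes. The members' median was then -0.04 and the log2 ratio 0.76. Median-of-ratios factors gave 10 and 10, beside 15.7% and 13.6% of all genes, a members' median reversed to 0.01 and a log2 ratio of 0.80. The log2 ratio was 0.28 with stricter cell limits (300000 counts), 0.25 with raw sums, 0.26 without mitochondrial genes, 0.46 without the 50 highest genes, 0.17 without granulocyte-monocyte-like cells and 0.18 without lymphoid-marker cells as well. It was 0.26 without cell 74, and 0.21 without that cell and the granulocyte-monocyte-like cells. With stricter cell limits 16 members were 2-fold lower, beside 32.7% of all genes. Without cell 74, when the measured members were chosen anew, 16 were 2-fold lower, beside 32.5% of all genes. These changes of scale act by construction on all genes, and the cause of the others was not tested. Leaving out cell 74 or the lymphoid-marker cells, and the other scales without granulocyte-monocyte-like cells, were chosen after seeing the data. Of 799 values of single named genes under the alternatives, 320 moved and 0 of the called ones reversed, while 12 of 47 named genes changed sign in at least 1 setting.

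No paired analysis was possible because each plate is 1 sample, the results come from no test and the numbers in the labels only name cells. For the same reason no replicate was left out. Depth limits members under 5 CPM, which rest on fewer than about 46 counts per plate.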
